A study of Mus musculus with 6 samples.

Results

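A set of 38 glycolysis and hypoxia response genes was examined in mouse embryo fibroblasts (MEFs) with and without RNF40, a subunit of the ubiquitin ligase that monoubiquitinates histone H2B. The genes were taken by symbol, and all 38 were present among the 29955 genes of the deposited RNA-seq table. The set comprises glucose transporters, the enzymes from hexokinase to pyruvate kinase, lactate dehydrogenases, lactate transporters and regulators of the pathway (24 genes), and the factors, oxygen-sensing hydroxylases and further targets of the hypoxia-inducible factor (HIF) pathway (14 genes). RNA-seq was performed on 3 libraries of Rnf40+/+ MEFs and 3 libraries of Rnf40-/- MEFs at passage 3. The knockout cells came from Rosa26-CreERT2, Rnf40 loxP/loxP embryos, in which exons 3 and 4 of Rnf40 lie between loxP sites and Cre is expressed ubiquitously and activated by tamoxifen. Cre was activated with 4-hydroxytamoxifen (4-OHT; 250 nM, 5 days), followed by 3 days of culture without the drug. Whether the Rnf40+/+ cells carried the Cre transgene or received 4-OHT is not stated in the sources used here, so deletion, Cre activity and treatment cannot be told apart. All cells were primary cultures in high-glucose medium with 5% CO2, and no hypoxic exposure is described. Nothing states that replicates came from separate embryos, so p-values measure only the spread between these libraries, which may be technical.

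Glycolysis converts glucose to pyruvate in the cytosol, and lactate dehydrogenase and the monocarboxylate transporters then turn pyruvate into lactate and carry it out of the cell. When oxygen is plentiful, prolyl hydroxylases (the Egln genes) mark the HIF alpha subunits for destruction. When oxygen is scarce, the stable alpha subunit pairs with ARNT, binds short DNA motifs with the core ACGTG or GCGTG and raises the transcription of most glycolysis genes, of the hydroxylases Egln1 and Egln3 themselves and of stress genes such as Bnip3 and Adm. HIF alpha is controlled mainly at the protein level, and mRNA alone does not report its activity.

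The libraries held between 17053436 and 26344170 reads on genes. Values are normalized counts, the reads on a gene after division by the size factor of its library, and genotypes were compared with limma on log2(normalized count + 1) with Benjamini-Hochberg adjustment over 16378 genes, where an adjusted p under 0.05 passed the test. Rnf40 itself fell to 40.5% of its Rnf40+/+ level, from 1096 to 1278 in Rnf40+/+ libraries to 439 to 519 in Rnf40-/- libraries. Within a genotype the libraries differed by a chi-square per gene of 5.31 to 28.3, with both of the highest values for Rnf40+/+ replicate 3, and between genotypes by 74.7 to 117. Of 11 fibroblast markers, each detected in every library, 9 fell and 0 rose, where 24.1% and 23.3% of all genes tested did. Their summed normalized count was 690423 to 758356 in Rnf40+/+ and 414562 to 417835 in Rnf40-/- libraries. Markers of skeletal muscle (Myod1) and erythroid cells (Hbb-b1) were at 0. The part of these lower marker levels in the results that follow was not tested. Macrophage markers summed to 5667 to 9739 in Rnf40+/+ and 3542 to 3920 in Rnf40-/- libraries, with 3 of 8 tested lower (Lyz2, Tyrobp, Fcer1g) and 1 higher (Ptprc).

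Loss of RNF40 was accompanied by lower mRNA of most of the changed glycolysis genes and by a mixed response of the HIF genes. Of the 37 members with enough reads for the test, 16 fell, 7 rose and 14 did not pass, that is, 62.2% passed compared with 47.4% of all genes tested. The lower calls were 43.2% of members against a background of 24.1%, and the higher calls 18.9% against 23.3%. The median log2 fold change was -0.20 over the members and -0.0035 over all genes tested. Relative to the Rnf40+/+ means, the median of the members was -0.19, -0.22 and -0.11 in the 3 Rnf40-/- libraries and between -0.06 and 0.04 in the Rnf40+/+ libraries, so the groups did not overlap. By the size criteria of the study (mean above 15, p under 0.05 and a log2 fold change beyond 1 in either direction), 2 members were lower (Tpi1 and Slc16a3) and 0 were higher, where 5.70% and 4.25% of all genes tested met these criteria. Without Rnf40+/+ replicate 1, Epas1 would be counted as higher (log2 fold change 1.04), as would Ndrg1 without Rnf40+/+ replicate 3 (1.12). As these are bulk samples, fewer cells of a type and less RNA per cell cannot be told apart.

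**Figure D1:**
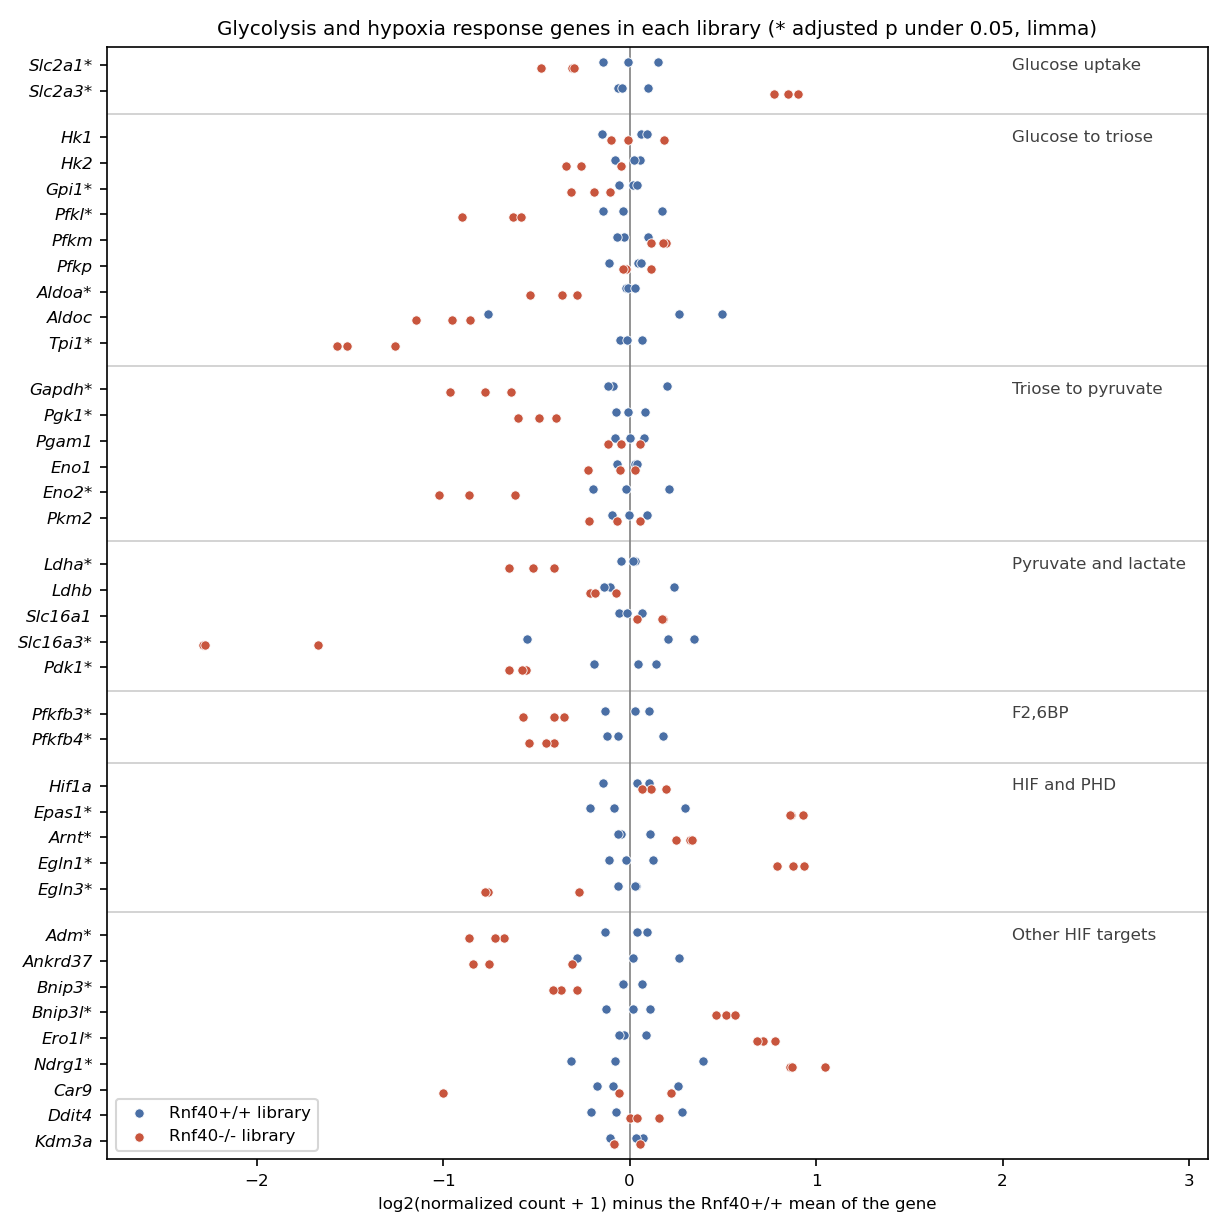
Each point is 1 library, and the x axis gives log2(normalized count + 1) minus the Rnf40+/+ mean of that gene. Rows are the 38 genes by role (F2,6BP, enzymes that make and remove the activator of phosphofructokinase; PHD, HIF prolyl hydroxylases), and asterisks mark the 23 that passed the test. Slc16a3 and Tpi1 lie farthest to the left, and Slc2a3, Epas1, Egln1, Ero1l, Ndrg1 and Bnip3l lie to the right of every Rnf40+/+ point of their row.

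The 24 glycolysis genes and the 14 HIF genes gave different counts. Among the former, 13 of 23 tested fell (56.5%) and 1 rose (4.35%), with a median of -0.36. Among the latter, 3 of 14 fell (21.4%) and 6 rose (42.9%), with a median of 0.10. Of all genes tested, 24.1% fell and 23.3% rose, so the share of HIF genes that fell was near the background. The difference between these medians was not tested.

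**Figure D2:**
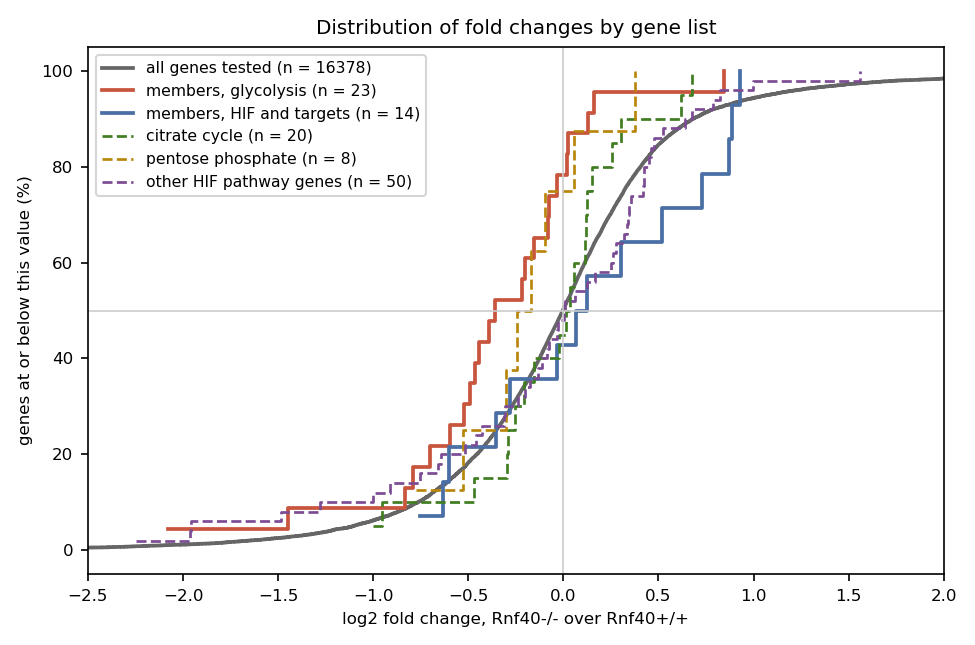
Cumulative percentage of genes (y axis) at or below a given log2 fold change (x axis, Rnf40-/- over Rnf40+/+, shown from -2.5 to 2) for both member groups, related lists and the 16378 genes tested. The curve of the glycolysis members lies to the left of that of all genes over most of its length and crosses 50% at -0.36, compared with -0.0035 for all genes.

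The glucose transporters moved in opposite directions. Slc2a1 encodes GLUT1, the main transporter of proliferating cells, and Slc2a3 encodes GLUT3, a transporter of high affinity. Slc2a1 had normalized counts of 2004, 1795 and 1631 in Rnf40+/+ and 1458, 1295 and 1468 in Rnf40-/- libraries. All Rnf40-/- values were below all Rnf40+/+ values, with a log2 fold change of -0.36 (SE 0.09, adjusted p = 0.0044 with limma). Slc2a3 had 88.4, 89.7 and 99.0 against 167, 159 and 174, again with no overlap but in the other direction (log2 fold change 0.84, SE 0.14, adjusted p = 0.00043). Per kilobase of transcript, Slc2a1 nevertheless remained far the more abundant, and the share of Slc2a3 in the sum of the pair went from 3.28% ± 0.52 to 7.24% ± 0.22 (SD, n = 3). Since the sum per kilobase went from 718 ± 70.3 to 582 ± 39.0, the gain of Slc2a3 was smaller than the loss of Slc2a1 on this scale.

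From hexokinase to triosephosphate isomerase, 4 of 8 tested genes fell (50%, compared with 24.1% of all genes tested) and 0 rose (compared with 23.3%). The strongest was Tpi1 (chromosome 6, 124760604 to 124764314, minus strand, mm9), the enzyme that interconverts both triose phosphates. Its normalized counts were 4527, 4635 and 4907 in Rnf40+/+ and 1642, 1579 and 1963 in Rnf40-/- libraries. The lowest Rnf40+/+ library was thus well above the highest Rnf40-/- library, and 36.8% of the Rnf40+/+ mean was left (4689.8 ± 196 to 1728 ± 206, log2 fold change -1.45, SE 0.08, adjusted p = 1.1e-07). This was the largest fall, as a log2 fold change, among the 14 tested enzymes between hexokinase and pyruvate kinase. The neighbouring gene Spsb2 shares 34 exonic bases with it on the other strand, 1.54% of the exonic bases of Tpi1, and had a log2 fold change of 0.05.

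Phosphofructokinase, the committed step of the pathway, is built from 3 subunit genes, of which Pfkl fell and the others did not pass. Pfkl (liver type) had 1461, 1575 and 1821 in Rnf40+/+ and 1046, 864 and 1077 in Rnf40-/- libraries, with no overlap (log2 fold change -0.70, SE 0.10, adjusted p = 0.00014). Pfkm (muscle type) had 1168 ± 72.2 and 1306 ± 38.7, a log2 fold change of 0.16 that did not pass (adjusted p = 0.082), and Pfkp (platelet type) had 990.2 ± 63.2 and 1004 ± 59.3 (adjusted p = 0.85). The log2 ratio of Pfkm to Pfkl went from -0.47 ± 0.24 to 0.40 ± 0.20. Per kilobase, Pfkl made up 40.2% ± 4.04 of the 3 transcripts in Rnf40+/+ and 27.7% ± 2.45 in Rnf40-/- libraries, whereas the share of Pfkm went from 37.6% ± 2.64 to 47.1% ± 2.52. The order of Pfkl and Pfkm thus changed from near equality to Pfkm first. Upper-quartile scaling and leaving out Rnf40+/+ replicate 1 each brought Pfkm past the test, at 0.21 on the log2 scale.

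Aldoa, the main aldolase of these cells, fell to 76.4% (12649 ± 216 to 9665 ± 850.3, log2 fold change -0.39, SE 0.07, adjusted p = 0.00095). Gpi1, which interconverts glucose and fructose phosphates, shares 16.5% of its exonic bases with Gm17327 on the other strand, a gene that was not tested. Gpi1 was at 86.9% (log2 fold change -0.20, adjusted p = 0.029). That call was lost under upper-quartile scaling (-0.16, adjusted p = 0.078) and without Rnf40+/+ replicate 2, Rnf40-/- replicate 1 or Rnf40-/- replicate 2 (-0.15 to -0.21). The hexokinases Hk1 and Hk2, which trap glucose in the cell, did not pass (log2 fold changes 0.03 and -0.22, adjusted p = 0.83 and 0.062), although Hk2 did with a replicate block (adjusted p = 0.031) and without Rnf40+/+ replicate 3 or Rnf40-/- replicate 2. Aldoc had too few reads to be tested, with 15.5, 7.14 and 18.4 in Rnf40+/+ and 6.12, 5.22 and 6.61 in Rnf40-/- libraries.

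In the later steps, from triose phosphate to pyruvate, 3 of 6 genes fell (50%, compared with 24.1% of all genes tested) and 0 rose (compared with 23.3%). Gapdh, which makes NADH at the oxidative step, had 37802, 30960 and 30364 in Rnf40+/+ and 19212, 16847 and 21192 in Rnf40-/- libraries. The groups were far apart, at 57.8% of the Rnf40+/+ mean (log2 fold change -0.79, SE 0.10, adjusted p = 6.9e-05). Pgk1, the next enzyme and the first that makes ATP, had 11015, 11736 and 10544 against 7930, 7318 and 8451, with no overlap (log2 fold change -0.49, SE 0.07, adjusted p = 0.00017). Eno2, the enolase of neurons, had 955, 721 and 815 against 454, 539 and 406 (log2 fold change -0.83, SE 0.12, adjusted p = 0.00016), so that its values did not overlap either. A further enolase gene, Eno3, is not among the members. It fell from 913 ± 70.1 to 380 ± 42.9 without overlap (log2 fold change -1.26, SE 0.10, adjusted p = 1.2e-06). By contrast, Pgam1, Eno1 and Pkm2, the most abundant genes of the last 3 steps, overlapped between genotypes, with log2 fold changes of -0.04, -0.08 and -0.08 (adjusted p = 0.70, 0.41 and 0.51). The row of Pkm2 covers the whole pyruvate kinase gene and does not separate its muscle isoforms. Transcripts over 95% identical to Gapdh, Gpi1, Pgam1 and Eno1 are annotated elsewhere in mm9 (for Eno1, Gm5506 with 99.45% identity over 81.3% of the transcript), and reads from them could be split, so the values of these 4 genes are uncertain to that extent.

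Per kilobase of transcript, Gapdh was first of the 38 genes in Rnf40+/+ MEFs, at 23269 ± 2911 normalized counts per kilobase, before Pkm2 at 16768 ± 1097. In Rnf40-/- MEFs Pkm2 came first, at 15934 ± 1495, and Gapdh second, at 13439 ± 1532, with values of 14403 to 17391 and 11864 to 14924 that overlapped. Tpi1 went from the ninth to the 11th place, from 2918 ± 122 to 1075 ± 128. Gapdh is often used as a reference gene, and its mean was 1.73 times as high in Rnf40+/+ as in Rnf40-/- MEFs.

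**Figure D3:**
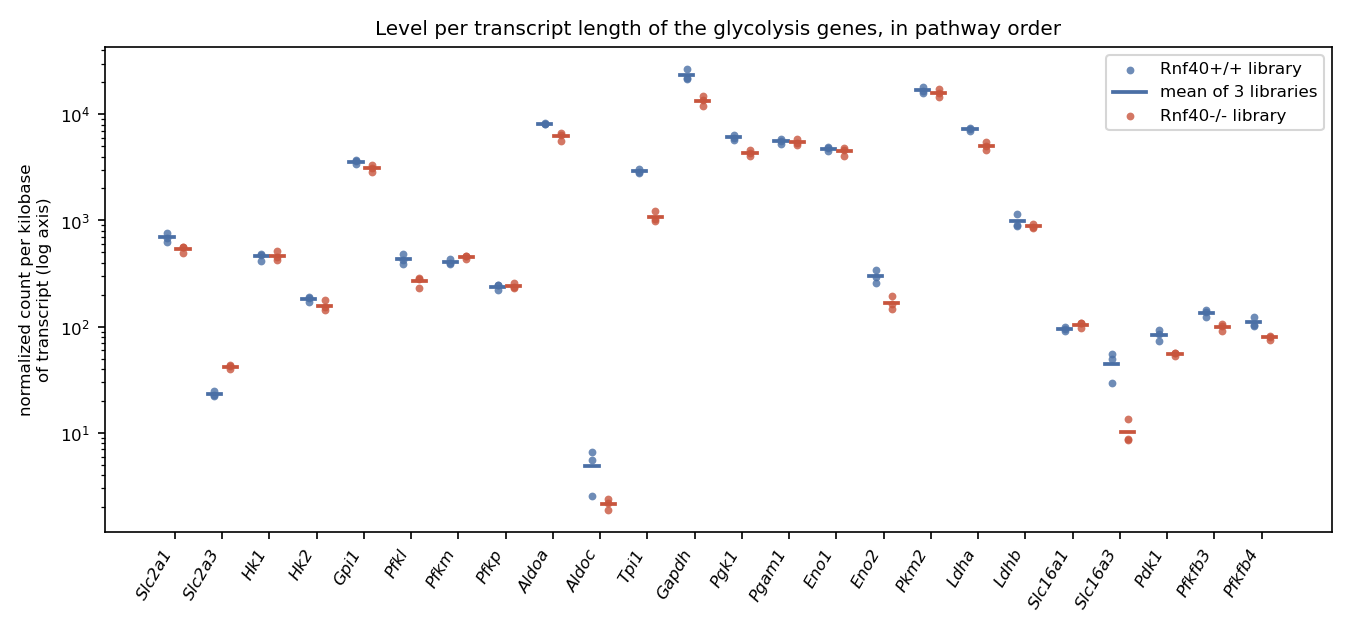
Normalized count per kilobase of transcript (y axis, log scale) of the 24 glycolysis genes in pathway order (x axis). Points are libraries and horizontal bars are means of 3 libraries in blue for Rnf40+/+ and red for Rnf40-/-; the red points of Tpi1, Gapdh, Ldha and Slc16a3 lie below all blue points of the same gene, and those of Slc2a3 above.

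At the end of the pathway, 3 of 5 genes fell (60%, compared with 24.1% of all genes tested) and 0 rose (compared with 23.3%). Slc16a3 (chromosome 11, 120809794 to 120822182, plus strand, mm9) encodes MCT4, the lactate exporter of highly glycolytic cells, and showed the largest change of all members tested. Its normalized counts were 238, 127 and 216 in Rnf40+/+ and 58.1, 37.6 and 37.8 in Rnf40-/- libraries. Although Rnf40+/+ replicate 2 was low in its group, it was still above every Rnf40-/- library, and the mean went from 194 ± 58.3 to 44.5 ± 11.8, or 23.0% (log2 fold change -2.08, SE 0.25, adjusted p = 4.0e-05). Its exons share 831 bases, 15.6% of their length, with Csnk1d on the other strand, which had a log2 fold change of 0.05, and whether reads were counted by strand is not stated. The macrophage markers given above also summed lower in Rnf40-/- libraries. Tyrobp was at 29.4%, Lyz2 at 42.6% and Fcer1g at 58.5% of the Rnf40+/+ mean, without overlap. Ptprc rose, and the other markers tested did not pass. Without Lyz2, a sum taken after values were seen, the 8 others had 1481 to 2299 in Rnf40+/+ and 1449.6 to 1537 in Rnf40-/- libraries, which overlapped. The part of macrophages in the fall of Slc16a3 was not tested. Slc16a1, which encodes MCT1, had 422 ± 18.5 and 463 ± 24.7 (adjusted p = 0.25). The share of Slc16a3 in the sum of both transporters per kilobase went from 31.5% ± 7.0 to 8.89% ± 1.92.

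Ldha, which favours the reduction of pyruvate to lactate, had 12376, 13036 and 12921 in Rnf40+/+ and 8919, 8174 and 9650 in Rnf40-/- libraries. It fell to 69.8% with no overlap (log2 fold change -0.52, SE 0.07, adjusted p = 0.0001). Ldhb, which favours the reverse reaction, was at 89.2% and overlapped (adjusted p = 0.21). Pdk1, the kinase that switches off pyruvate dehydrogenase and so keeps pyruvate out of the citrate cycle, had 447, 478 and 379 against 294, 290.1 and 276. Every Rnf40-/- library was below every Rnf40+/+ library (log2 fold change -0.59, SE 0.11, adjusted p = 0.00076). Pfkfb3 and Pfkfb4, which set the level of an activator of phosphofructokinase, both fell, to 73.5% and 72.2%. Pfkfb4 had 408, 331 and 346 in Rnf40+/+ and 272, 264 and 247 in Rnf40-/- libraries, and neither gene overlapped (log2 fold changes -0.44 and -0.46, SE 0.09 and 0.11, adjusted p = 0.0022 and 0.0046).

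In the HIF pathway itself, 3 of 5 genes rose (60%, compared with 23.3% of all genes tested) and 1 fell (20%, compared with 24.1%). Epas1 encodes the HIF-2 alpha subunit and had 336, 257 and 235 in Rnf40+/+ and 498, 496 and 520.3 in Rnf40-/- libraries. The groups were apart without overlap (log2 fold change 0.89, SE 0.13, adjusted p = 0.00013). Hif1a, the alpha subunit with the wider expression, had 3624 ± 318 and 3948 ± 184, which overlapped (log2 fold change 0.13, SE 0.07, adjusted p = 0.19). Per kilobase, Epas1 was the minor subunit in both genotypes, at 6.33% ± 0.98 and 10.2% ± 0.63 of their sum. Arnt, the common partner, rose to 123% (log2 fold change 0.30, SE 0.07, adjusted p = 0.0036).

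Egln1 and Egln3, which encode prolyl hydroxylases and are known HIF targets, moved in opposite directions. Egln1 encodes PHD2, the main oxygen sensor, and had 1285, 1512 and 1370 in Rnf40+/+ and 2402, 2653 and 2549 in Rnf40-/- libraries. It had the smallest adjusted p of the members that rose (log2 fold change 0.87, SE 0.08, adjusted p = 2.7e-06), with a wide gap between the groups. Egln3, which encodes PHD3, had 109, 108 and 101 against 62.2, 61.6 and 87.8. The groups did not overlap, but Rnf40-/- replicate 3 was the nearest to the Rnf40+/+ values (log2 fold change -0.60, SE 0.19, adjusted p = 0.02). Without Rnf40+/+ replicate 2, Rnf40-/- replicate 1 or Rnf40-/- replicate 2 the adjusted p of Egln3 was 0.058, 0.076 and 0.074. The other prolyl hydroxylase gene of the pathway, Egln2 (PHD1), is not among the 38 and fell from 1002 ± 119 to 702 ± 88.0 (log2 fold change -0.52, SE 0.11, adjusted p = 0.0023). Per kilobase, the share of Egln3 in the sum of the pair went from 9.19% ± 0.75 to 3.54% ± 0.72.

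Of 9 further HIF targets, 3 rose, 2 fell and 4 did not pass, so that 33.3% rose and 22.2% fell, compared with 23.3% and 24.1% of all genes. Ero1l, an oxidase that forms disulfide bonds in the endoplasmic reticulum, had 3807, 4127 and 3732 in Rnf40+/+ and 6386, 6671 and 6242 in Rnf40-/- libraries (log2 fold change 0.73, SE 0.06, adjusted p = 3.1e-06). Ndrg1, a stress-responsive gene, had 478, 405 and 661 against 917, 924 and 1041 (log2 fold change 0.93, SE 0.14, adjusted p = 0.00025), and although Rnf40+/+ replicate 3 was high in its group, neither gene overlapped. Bnip3l and Bnip3 encode related mitophagy receptors and parted. Bnip3l had 2769, 2945 and 2499.5 against 3774, 3913 and 4049.7 (log2 fold change 0.52, SE 0.07, adjusted p = 0.0001), whereas Bnip3 went from 880.4 ± 37.0 to 688 ± 31.8 (log2 fold change -0.35, SE 0.08, adjusted p = 0.0023). Adm, the precursor of the vasodilator adrenomedullin, had 816, 786 and 697 against 420.1, 479 and 463. All its Rnf40-/- values were lower (log2 fold change -0.75, SE 0.09, adjusted p = 3.8e-05). Ankrd37 did not pass (48.7 ± 9.36 and 31.1 ± 6.66, log2 fold change -0.63, adjusted p = 0.065), and it shares 24.9% of its exonic bases with Lrp2bp on the other strand. Car9, Ddit4 and the histone demethylase gene Kdm3a overlapped between genotypes, with log2 fold changes of -0.28, 0.07 and -0.04. Car9, a classical marker of hypoxia, stayed between 10.4 and 26.3 normalized counts in every library.

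Isozymes were also compared as the log2 ratio of their normalized counts, each with 1 added, within a library. The genotypes did not overlap for 9 of 12 pairs. No such share was computed for other pairs of genes, and 47.4% of all genes tested passed the limma test singly, so this count has no background. The largest differences were -2.21 for Slc16a3 to Slc16a1, -1.47 for Egln3 to Egln1, 1.20 for Slc2a3 to Slc2a1, 0.87 for Bnip3l to Bnip3, 0.86 for Pfkm to Pfkl and 0.76 for Epas1 to Hif1a. Each had p = 0.1 in an exact two-sided permutation test, which is the smallest value that 3 against 3 libraries allow, and an adjusted p of 0.13 over the 12 pairs. The pairs of Hk2 to Hk1, Aldoc to Aldoa and Pfkfb4 to Pfkfb3 overlapped, with differences of -0.24, -0.59 and -0.02 (exact p = 0.3, 0.4 and 0.9).

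**Figure D4:**
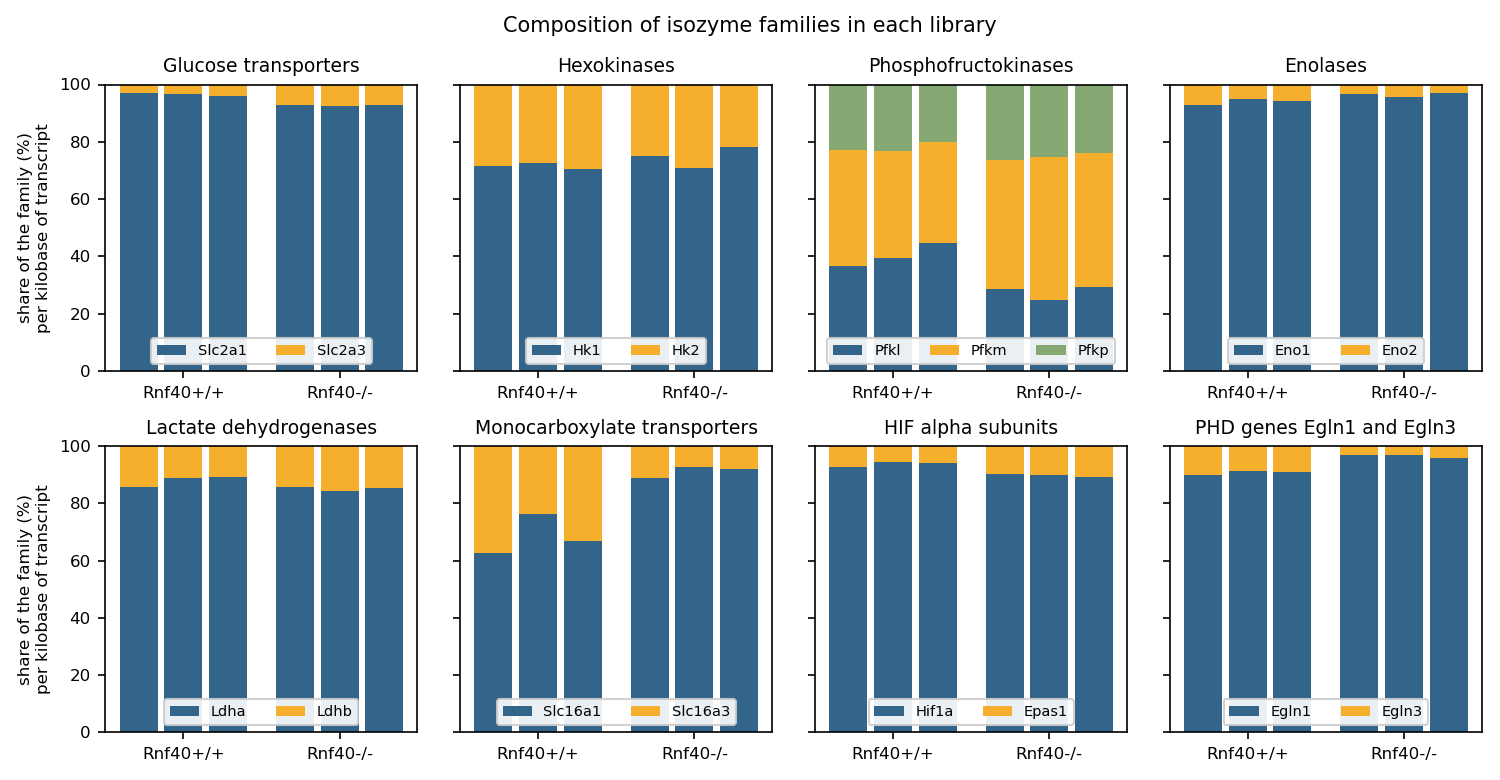
Stacked bars give the share (%, y axis) of each isozyme in the sum of its family per kilobase of transcript, 1 bar per library, with 3 Rnf40+/+ bars on the left of each panel and 3 Rnf40-/- bars on the right. The shares of Pfkl (from 40.2% to 27.7%) and Slc16a3 (from 31.5% to 8.89%) became smaller. Hk2 was at 28.5% and 25.3% of the sum of Hk1 and Hk2.

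The sequence upstream of the genes was searched for the HIF core motif, as ACGTG and GCGTG on either strand (CACGT and CACGC when read on the strand of the gene). ACGTG is also part of CACGTG, the E-box bound by other factors such as MYC and USF. RefSeq promoters (GRCm38) were given for 34 of the 38 genes, while Slc2a3, Epas1, Bnip3l and Ndrg1 had no entry. The 250 bases before the start held a match in 39 of 49 member promoters (79.6%), compared with 38.6% of all 32851 promoters and 53.5% of the 14284 promoters of genes tested. Windows of the same gene can overlap, as for Aldoa, Eno1 and Pfkm, so that the same place can be counted again. The median number of CG dinucleotides was 14 in member promoters, 15 in promoters of genes tested and 6 in all promoters. At 2 or more places, matches were found in 42.9%, 13.5% and 22.2%, respectively. A match was present for 13 of the 16 members that fell, for all 3 with a promoter that rose and for all 14 that did not pass, and was thus found in genes of either direction. These counts are by gene, with a match in any of its promoters, and cannot be set against the shares of promoters above. No share by gene was computed for other genes. Tpi1, Gpi1 and Eno2 had no match in this window. Of Slc16a3, the window held ACGTG 27 and 14 bases before the start.

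To show what genes of either direction carried, 6 windows are given, 5′ to 3′ on the strand of the gene, with matches in capitals. They were placed on mm9 by exact match, and lie in no annotated exon. Pgk1 (chrX:103382189-103382438, plus strand), Ldha (chr7:54100924-54101173, plus strand), Adm (chr7:117770921-117771170, plus strand) and Egln3 (chr12:55304862-55305111, minus strand) fell, and Egln1 (chr8:127473155-127473404, minus strand) and Ero1l (chr14:45938248-45938497, minus strand) rose.
Pgk1: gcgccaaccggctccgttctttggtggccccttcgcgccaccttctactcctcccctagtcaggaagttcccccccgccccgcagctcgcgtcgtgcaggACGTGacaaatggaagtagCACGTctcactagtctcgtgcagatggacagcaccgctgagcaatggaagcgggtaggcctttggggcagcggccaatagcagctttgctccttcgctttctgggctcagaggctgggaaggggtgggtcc
Ldha: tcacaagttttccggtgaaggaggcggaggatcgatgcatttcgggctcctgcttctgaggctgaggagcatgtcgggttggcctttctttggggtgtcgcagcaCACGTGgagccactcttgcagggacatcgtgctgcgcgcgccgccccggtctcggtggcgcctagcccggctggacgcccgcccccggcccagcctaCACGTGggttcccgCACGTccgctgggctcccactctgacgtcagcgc
Adm: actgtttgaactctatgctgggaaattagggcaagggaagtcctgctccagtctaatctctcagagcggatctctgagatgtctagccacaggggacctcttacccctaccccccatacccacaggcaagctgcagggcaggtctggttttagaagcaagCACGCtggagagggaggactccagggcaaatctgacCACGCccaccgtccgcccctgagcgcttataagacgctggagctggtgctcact
Egln3: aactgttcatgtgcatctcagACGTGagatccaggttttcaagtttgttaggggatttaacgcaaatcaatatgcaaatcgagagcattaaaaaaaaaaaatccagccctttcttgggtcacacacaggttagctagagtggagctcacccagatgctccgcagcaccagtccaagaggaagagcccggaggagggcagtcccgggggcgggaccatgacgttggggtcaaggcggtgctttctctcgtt
Egln1: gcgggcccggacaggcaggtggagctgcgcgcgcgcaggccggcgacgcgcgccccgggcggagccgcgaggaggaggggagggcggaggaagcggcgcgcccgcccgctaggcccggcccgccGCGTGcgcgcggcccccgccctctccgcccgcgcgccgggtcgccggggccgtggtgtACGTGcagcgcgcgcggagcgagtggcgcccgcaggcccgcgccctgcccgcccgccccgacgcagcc
Ero1l: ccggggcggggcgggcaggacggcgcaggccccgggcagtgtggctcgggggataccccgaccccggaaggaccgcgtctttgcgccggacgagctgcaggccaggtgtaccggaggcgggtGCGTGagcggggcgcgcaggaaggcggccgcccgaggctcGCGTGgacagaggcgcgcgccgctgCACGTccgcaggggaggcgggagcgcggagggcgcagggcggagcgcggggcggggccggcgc
The window of Pgk1 holds ACGTG 150 bases before the start and CACGT, which reads ACGTG on the other strand, 131 bases before it. Ldha has 3 places, of which the first 2 are complete E-boxes. Ero1l, which rose, likewise has 3 places, and Egln1 and Egln3, which moved in opposite directions, have 2 and 1. A match is a description of the letters and not evidence of binding.

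In related pathways the changes were of both signs. Of 34 tested further genes of glycolysis, glycogen and pyruvate metabolism, 9 fell and 8 rose (median -0.05), or 26.5% and 23.5%, close to the 24.1% and 23.3% of all genes tested. The largest falls were those of Pck2, the mitochondrial enzyme that makes phosphoenolpyruvate (log2 fold change -1.72), Hk3 (-1.70) and the glycogen phosphorylase Pygl (-1.61). The largest rises were those of Pdk4 (0.68), the pyruvate carboxylase gene Pcx (0.54) and Bpgm (0.49). Pdk4 thus rose while Pdk1, a kinase with the same substrate, fell. Of the related kinase genes, Pdk2 also fell (-0.42) and Pdk3 did not pass (-0.08). Among the macrophage markers Tyrobp, Lyz2 and Fcer1g fell and Ptprc rose, as given above, and their part in the falls of Hk3 and Pygl was not tested.

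Of 8 pentose phosphate pathway genes, 4 fell and 1 rose (median -0.21), or 50% and 12.5%, where 24.1% and 23.3% of all genes did. Pgd (-0.77), G6pdx (-0.53) and Pgls (-0.30), the enzymes of the oxidative branch that makes NADPH, fell, and Rpia (0.38) rose, a call lost without Rnf40-/- replicate 3. A list of 20 genes held the citrate cycle enzymes and also Aco1, Idh1, Idh2 and Mdh1, which are isozymes of cycle enzymes. Of these 20, 7 fell and 4 rose (median 0.02), or 35% and 20% against 24.1% and 23.3% of all genes. With upper-quartile scaling 5 fell and 5 rose. Idh1, Idh2 and Mdh1 were among the 7 that fell, and Aco1 did not pass, so the list does not describe the cycle alone. Idh1 (-1.003) and Idh2 (-0.96), which make NADPH, and the cycle gene Ogdh (-0.47) fell furthest in the list. Mdh2 (0.62) and Sdha (0.30) were among those that rose.

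Of 50 tested further HIF pathway and hypoxia genes, 16 fell and 15 rose (median 0.01), that is, 32% and 30% compared with 24.1% and 23.3% of all genes. Vegfa, the angiogenic growth factor and a HIF target, had 2752, 2102 and 2186 in Rnf40+/+ and 502, 505 and 464 in Rnf40-/- libraries. Its groups did not overlap, and 20.9% of the Rnf40+/+ mean was left (log2 fold change -2.25, SE 0.10, adjusted p = 1.7e-08). Ppp1r3c, a glycogen-targeting subunit, followed with -1.97 (SE 0.17). Stc2 was at -1.96, but Rnf40+/+ replicate 1 (465) stood apart from the other 2 of its group (72.4 and 93.4). Among the genes that rose, Kdr, the receptor of VEGF, went from 27.4 ± 6.47 to 84.5 ± 28.7 (1.56), Cp (ceruloplasmin) had 1.00 and Cited2, an inhibitor of HIF transactivation, 0.82. Kdr is also an endothelial marker. The endothelial markers Pecam1 (3.75 ± 1.22 to 27.6 ± 8.34) and Cdh5 (2.76 ± 2.17 to 31.6 ± 8.03) rose as well, with log2 fold changes of 2.58 and 3.26, whereas Emcn fell (-1.15), and Tek did not pass. Over all 6 markers, Kdr included, the sums overlapped, at 146 to 282 in Rnf40+/+ and 234 to 333 in Rnf40-/- libraries. Within them, Tek had 115 in Rnf40+/+ replicate 1 but 11.2 and 16.0 in replicates 2 and 3, against 43.8 to 73.1 in Rnf40-/- libraries. The part of endothelial cells in the rise of Kdr was not tested.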

How the data were processed

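RNA-seq was analysed from 3 Rnf40+/+ and 3 Rnf40-/- MEF libraries, grouped by the genotype in the labels. The authors mapped reads to the mouse transcriptome (mm9; the submitters' processing notes name Bowtie2 2.1.0 and DESeq 1.14.0) and deposited 1 signal per gene, the count of reads divided by a size factor per library. In each library 100% of values above 0 came out as whole reads (tolerance 0.01 reads), which were recovered in this way. How strand and shared reads were counted is not given in the sources used here.

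As the values were not whole, limma (version 3.58.1; lmFit, eBayes with trend) was run on log2(normalized count + 1), on genes kept by filterByExpr of edgeR (version 4.0.16), with genotype as the only term. The added 1 understates changes of genes with few reads, where 3 reads correspond to 2.40 to 3.58 normalized counts. Errors are SD over 3 libraries or the standard error of limma.

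The members, gene lists, isozyme pairs and tests were chosen with earlier results of these data known. Every member is named. Values per library are given for those that passed with an absolute log2 fold change above 0.5 or the largest change of their role, and from each further list up to 3 rises and 3 falls with a mean above 15, of which 1 is not reported here. The values per library of Slc2a1, Pgk1 and Aldoc, and the values of Egln2, Eno3, Pdk2 and Pdk3, were added after values were seen. So were the macrophage sum without Lyz2, the values of single macrophage markers and of Tek, and the overlapping and neighbouring genes. Lengths and positions come from the longest annotated transcript and the gene models of GENCODE for mm9. Near-identical transcripts were found with BLAST (version 2.17.0).

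Replicate numbers did not pair the libraries (correlations of same-numbered deviations 0.01, 0.02 and 0.02), so no block was used. No pair of libraries was a duplicate. Alternatives were edgeR with TMM and DESeq2 (version 1.42.0) on the recovered reads, upper-quartile scaling, other filters and pseudocounts (0.1 and 10), a replicate block and each library left out. R 4.3.3 and Python 3.11.15 were used.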

Additional observations from a re-analysis of the deposited data

How the results depend on the processing

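All 23 members that passed kept their direction under the 14 alternatives, and 21 passed under each. The exceptions, Gpi1 and Egln3, are given with their values above. Of the 14 members that did not pass, 4 passed somewhere (Hk2, Pfkm, Ankrd37 and Ddit4). With edgeR on recovered reads, 7797 genes passed, against 7764 with limma, and 7 members were higher and 16 lower, as with limma. With each library left out, 7 to 8 members were higher and 14 to 17 lower, 0 to 1 were higher and 2 lower by the size criteria, and the median was -0.23 to -0.15, with -0.15 without Rnf40+/+ replicate 1. Pentose phosphate genes that rose were 0 to 1. Small changes turned direction. Under upper-quartile scaling, which moved the median of all genes to 0.04, Pgam1 was at 0.012 and Kdm3a at 0.012. With each library left out, the range was -0.052 to 0.089 for Hk1, -0.033 to 0.052 for Pfkp, -0.081 to 0.0054 for Pgam1, -0.53 to 0.082 for Car9, -0.036 to 0.21 for Ddit4 and -0.096 to 0.062 for the log2 ratio of Pfkfb4 to Pfkfb3. The cause was not tested. The replicate block raised the calls over all genes from 7764 to 8217 and, among members, changed only the call of Hk2 (log2 fold change -0.22, adjusted p = 0.031). With 3 libraries a group, no exact test of a single gene can give p below 0.1.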

Other observations

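Eno2, Tpi1 and Gapdh, which all fell, lie within 406 kb of chromosome 6 of mm9 (124710071 to 125116485), with 40.9 kb between Eno2 and Tpi1 and 348 kb between Tpi1 and Gapdh. This region was chosen after the values were seen. Of the 17 other tested genes in it, 8 fell (47.1%, compared with 24.1% of all genes tested), 0 rose (compared with 23.3%) and 9 did not pass, with a median log2 fold change of -0.36. The falls included Cdca3 (-2.12, SE 0.24), a cell cycle gene, Ptms (-1.12, SE 0.15), Gpr162 (-1.01, SE 0.24), Leprel2 (-0.75, SE 0.07) and Iffo1 (-0.36, SE 0.10). Abundant neighbours such as Chd4 (-0.0046 on the log2 scale, SE 0.07), Mlf2 (-0.06, SE 0.07) and Cops7a (0.07, SE 0.07) did not pass. The region thus held both genes that fell and genes with differences near 0.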
